A study of Mus musculus with 2 samples.

Results

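The variable (V) segments of the alpha and beta chains of the T cell receptor were followed across the T cells of the mouse cecum. Of the 55487 gene symbols in the deposited expression matrix, 165 named a Trav or Trbv segment. A segment was kept as a member when its unique molecular identifiers (UMIs, 1 per captured RNA molecule) summed to at least 20 over all cells. This left 69 segments, 47 of the alpha chain (Trav) and 22 of the beta chain (Trbv), while 110 of the 165 had at least 1 UMI. Just inside that minimum were Trav13d-1 with 20 UMIs and Trbv21 with 22, and just outside it were Trav15-2-dv6-2 and Trav3-4 with 17 each. Trav13-5 was the single member with no entry of that name in the annotation used for positions.

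The cells were CD45+ immune cells sorted from the cecum of 4 male mice aged 101 days, tagged with anti-CD45 antibodies that carry a different DNA hashtag for each mouse and run together in 1 droplet library. The study, a chemogenetic screen, asked how activity of Trpv1+ nociceptor neurons bears on gut immune cells. There were 2 Trpv1-ADC mice and 2 littermate CTRL mice. The labels give all 4 the same treatment, AAV by intraperitoneal injection as neonates and 7 injections of CNO, 1 every other day. The strain entry covers the whole run, with Trpv1-Cre.B6 and Trpv1-WT.B6 in it, and the labels do not say which mouse carried which, what the AAV encoded, or whether mice of the same number were handled together. With 2 mice per group, the smallest two-sided p that an exact permutation of mice between the groups can give is 0.33.

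A T cell receptor gene is assembled in the thymus. On the beta chain, 1 of many V segments is joined to a diversity and a joining segment, and on the alpha chain 1 V segment is joined straight to a joining segment, after which the product is spliced to a constant gene (Trac, or Trbc1 or Trbc2). The V segment encodes the germline antigen-contacting loops and the start of the joined one, so a T cell clone carries its segments for life, and the usage of segments over many cells describes the repertoire. In mice the alpha V cluster holds large duplications, marked by d and n in the symbols, whose copies are nearly identical, and some alpha segments, marked dv, can also be used by the delta chain.

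How far near-identical copies can be told apart is best seen in the letters. The last 150 bases of the V segments are shown for 3 pairs (GRCm38, plus strand, from GENCODE M21 transcript models), with capitals at the bases that differ within a pair. Trbv12-1 (chr6:41113918-41114067) and Trbv12-2 (chr6:41119215-41119364), the V beta 5 pair, differ at 14 of 150 bases (90.7% identity).

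Trbv12-1: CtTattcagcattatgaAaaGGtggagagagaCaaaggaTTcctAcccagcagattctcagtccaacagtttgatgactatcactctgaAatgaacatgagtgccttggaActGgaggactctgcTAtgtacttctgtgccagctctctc
Trbv12-2: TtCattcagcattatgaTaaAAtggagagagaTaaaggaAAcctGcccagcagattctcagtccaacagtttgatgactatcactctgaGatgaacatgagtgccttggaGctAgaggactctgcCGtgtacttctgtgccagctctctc

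Trav16 (chr14:53743556-53743705) and Trav16n (chr14:53351472-53351621), the most abundant alpha pair, differ at 3 of 150 bases (98% identity).

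Trav16: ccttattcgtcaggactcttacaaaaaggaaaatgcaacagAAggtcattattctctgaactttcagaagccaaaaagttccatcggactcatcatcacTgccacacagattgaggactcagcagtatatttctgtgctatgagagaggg
Trav16n: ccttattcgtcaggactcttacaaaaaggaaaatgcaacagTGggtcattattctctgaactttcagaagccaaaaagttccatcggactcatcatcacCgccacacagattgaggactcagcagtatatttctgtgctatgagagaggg

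Trav11 (chr14:53519709-53519858) and Trav11d (chr14:52824763-52824912), the segments of the invariant natural killer T cell alpha chain, do not differ in this stretch, after 1 base was left off the end of Trav11, so no base is in capitals.

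Trav11: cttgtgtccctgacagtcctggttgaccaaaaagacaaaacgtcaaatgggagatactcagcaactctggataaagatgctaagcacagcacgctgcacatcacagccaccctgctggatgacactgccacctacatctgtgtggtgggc
Trav11d: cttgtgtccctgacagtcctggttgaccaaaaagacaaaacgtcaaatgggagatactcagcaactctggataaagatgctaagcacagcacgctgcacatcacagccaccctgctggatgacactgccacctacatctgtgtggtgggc

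Segments with almost no sequence of their own received few UMIs or none. Of 163 segments with a transcript model, 39 held no 60-base window of their own, all of them alpha segments: 36 of these had 0 UMIs, 3 had 1 UMI and 0 were members. Beyond that, counts did not rise steadily with uniqueness. Of the 64 segments with 10% to 90% of windows unique, all alpha, 36 were members, with up to 348 UMIs. Of the 19 alpha segments with at least 90% unique, 10 were members, with up to 96 UMIs. Of the 54 segments of both chains in which at least 90% of windows were unique, 32 were members. All 35 beta symbols fell in that class, and 21 of the 22 beta symbols annotated as functional-type V genes were members. Of the members, Trbv24 (81 UMIs) and Trav8-2 (36 UMIs) are annotated as pseudogenes. Trav16 (59.6% of windows unique), Trav16n (48.4%) and the related copy Trav16d-dv11 (41.8%) share most of their letters, and how the authors' counting treated reads that fit several copies is not given in the sources used here, so the split among these 3 is uncertain.

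**Figure D1:**
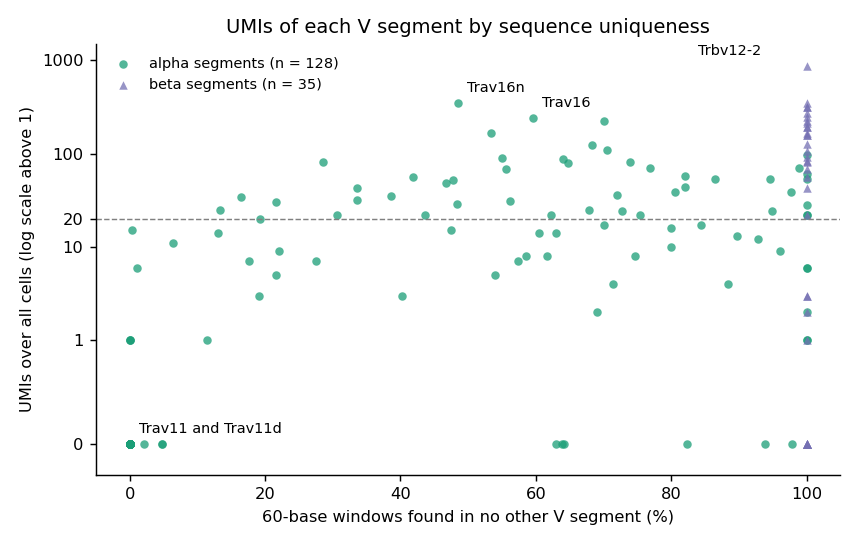
UMIs of each V segment over all cells (log scale above 1) against the percentage of its 60-base windows found in no other V segment, for 128 alpha and 35 beta symbols with a transcript model. The dashed line marks the minimum of 20 UMIs; Trav11 and Trav11d sit at 0 UMIs with 0% unique windows, and Trbv12-2, with 870 UMIs, is the highest point.

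Counts were sparse. The beta members summed to 4362 UMIs and the alpha members to 3077, of 174231251 UMIs in all. Set against the constant genes, there were 3.21 Trbv UMIs per 100 Trbc1 and Trbc2 UMIs and 7.41 Trav UMIs per 100 Trac UMIs. Trbv12-2 had the most, 870 UMIs, followed by Trav16n (348), Trbv2 (347), Trbv19 (320), Trbv20 (317), Trbv12-1 (276), Trbv3 (245) and Trav16 (241). These are sums of molecules over cells and not levels per length.

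Of 23063 barcodes, 19571 passed the filters and were assigned to 1 mouse, and 96.7% of these had a UMI of Ptprc, which encodes CD45. The 11754 T cells were those with Cd3 UMIs and few B or myeloid ones. Classes were set by marker genes that include no V segment. Naive CD4 (771 cells) and naive CD8 (763 cells) had at least 3 of 8 naive markers and at most 1 of 8 memory markers, the remaining CD4 (2193) and CD8 (1821) cells are called other CD4 and other CD8, regulatory cells (908) had a Foxp3 UMI, and intraepithelial-type cells (1776) had at least 3 of 8 markers such as Cd160 and Gzma and no Cd4 or Foxp3. These names stand for gates: 1117 of 1534 naive cells carried 1 memory marker, 410 of the regulatory cells had a single Foxp3 UMI, 594 intraepithelial-type cells lay at the minimum of 3 markers, and 226 of all 1776 intraepithelial-type cells had a Trdc UMI. Another 481 cells with delta and gamma constant RNA formed the gamma delta class, and 3041 T cells fell in no class. Connective and epithelial tissue markers, which the gates did not limit, reached 3.22 UMIs per alpha beta class cell. By class this ran from 1.58 in naive CD8 to 4.33 in other CD4 cells. It was 1.88 in B and 1.62 in myeloid cells. The source of this RNA was not tested.

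V segments were detected in T cells and close to absent elsewhere. At least 1 Trbv UMI was present in 21.6% of the 8232 cells of the 6 alpha beta classes (95% exact binomial interval 20.7% to 22.5%), against 7.69% of gamma delta cells (5.47% to 10.4%), 0.451% of B cells and 0.748% of myeloid cells. Median depth was 6014, 5719, 4522.5 and 7514.5 UMIs per cell in the same order. Trbv12-2 made up 3 of the 11 Trbv UMIs in B cells and 6 of the 8 in myeloid cells. Trav UMIs were in 16.8% of alpha beta class cells, 8.52% of gamma delta cells, 0.041% of B cells and 0.374% of myeloid cells. Both chains were seen in 4.06% of alpha beta class cells, 334 in number. Intervals cover counting error only.

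Between the alpha beta classes the share of cells with a Trbv UMI ran from 18.1% in naive CD8 and 18.3% in intraepithelial-type cells to 23.9% in other CD4. With each cell thinned to 3000 UMIs, which left out 104 of the 8232 cells, the expected shares were 8.88% in intraepithelial-type, 10.1% in naive CD8, 11.1% in other CD8, 11.8% in regulatory, 12.4% in other CD4 and 13.3% in naive CD4 cells. Intraepithelial-type cells thus had the lowest Trbv share at 1 depth. Their gate asked for no alpha beta receptor RNA. A Trac UMI was in 74.4% of them, against 81.7% to 92.2% in the other classes. Innate lymphocyte markers (Ncr1, Klrb1c, Il1rl1 and Il22) reached 0.581 UMIs per cell, against 0.0143 to 0.465. Neither Cd8a nor Cd8b1 was found in 899 of the 1776 cells. The part of other cell types in the low Trbv share was not tested. Thinned Trav shares ran from 6.78% in intraepithelial-type to 10.7% in other CD4 cells.

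**Figure D2:**
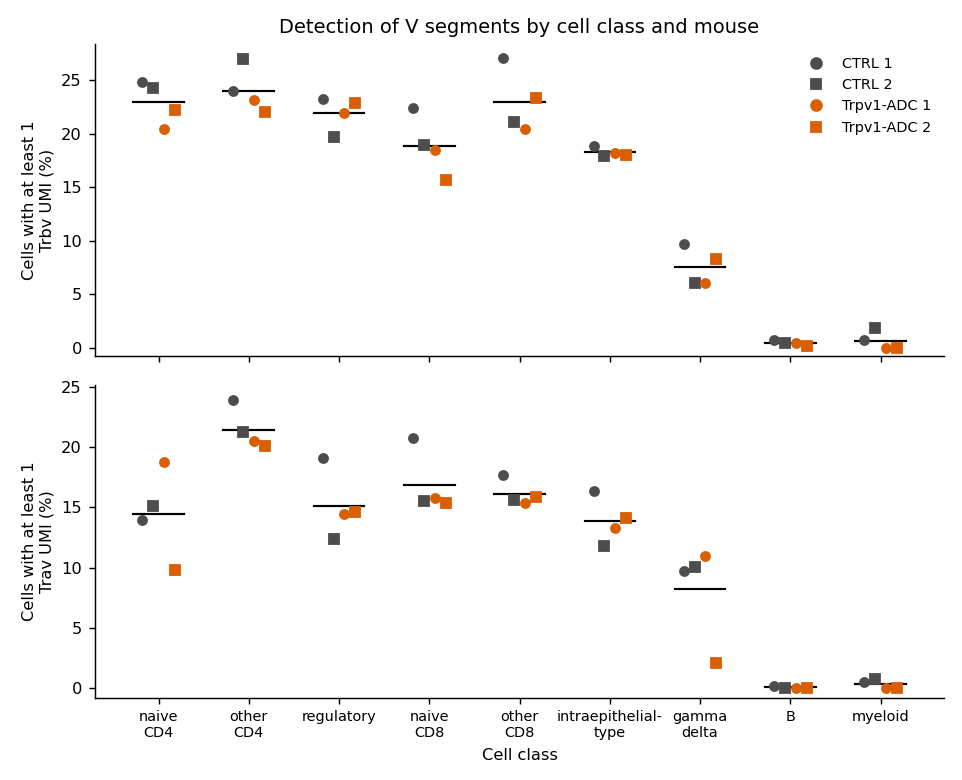
Percentage of cells with at least 1 Trbv UMI (top) and at least 1 Trav UMI (bottom) in each class, as sequenced; points are mice and bars the mean of 4 mice. The 6 alpha beta classes stand well above B and myeloid cells, and gamma delta cells lie between.

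A T cell should carry 1 productive beta segment, which gives a check on the counts. Of 1779 alpha beta class cells with a Trbv UMI, 145 (8.15%) held UMIs of at least 2 beta segments. Among the 373 cells with at least 2 Trbv UMIs, 228 (61.1%) had all of them on 1 segment. Trbv12-2, the beta segment found in the most cells, shared a cell with another beta segment in 72 of its 385 cells (18.7%). It did so most often with Trbv19 (16 cells) and Trbv13-2 (12 cells). Its share was not the highest. Over the beta members the share ran from 5.79% (Trbv3) to 36.4% (Trbv21, seen in 11 cells), with Trbv13-2 at 23.8%. Without Trbv12-2, 79 of 1466 cells (5.39%) held at least 2 segments and 209 of 288 (72.6%) held 1. The cause of the shared cells was not tested.

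Usage was therefore measured over cells. A cell was given a beta segment when its top segment had at least 1 UMI and at least 2 times the UMIs of the next, which called 20.4% of alpha beta class cells (1678). At 2 UMIs, the rule first intended, 3.30% would have been called. Usage is the percentage of called cells of a chain that carry a segment, taken in each mouse. Values per mouse are given in the order CTRL 1, CTRL 2, Trpv1-ADC 1, Trpv1-ADC 2.

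CD4 and CD8 cells differed in which segments they carried. Naive and other cells of each lineage were joined for this comparison (2964 CD4 and 2584 CD8 cells), a choice made after the counts of the separate classes were seen. Trbv12-1 and Trav16 were higher in CD8 cells, and Trbv1, Trbv2 and Trbv20 were higher in CD4 cells. The ends of these segments, with Trbv29 described after them, are shown with the codon of the conserved cysteine that opens the joined, most variable loop, and all germline bases after it, in capitals (GRCm38, plus strand): Trbv12-1 at chr6:41114008-41114067, Trbv29 at chr6:41271822-41271881, Trav16 at chr14:53743646-53743705, Trbv1 at chr6:40891826-40891885, Trbv2 at chr6:41047936-41047995 and Trbv20 at chr6:41188918-41188977.

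Trbv12-1: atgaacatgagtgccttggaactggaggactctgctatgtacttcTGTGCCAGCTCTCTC
Trbv29: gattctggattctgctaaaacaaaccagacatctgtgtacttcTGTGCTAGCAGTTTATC
Trav16: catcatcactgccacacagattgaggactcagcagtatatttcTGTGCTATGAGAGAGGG
Trbv1: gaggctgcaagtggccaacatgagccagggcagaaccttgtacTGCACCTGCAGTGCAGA
Trbv2: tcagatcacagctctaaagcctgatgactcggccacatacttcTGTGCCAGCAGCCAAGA
Trbv20: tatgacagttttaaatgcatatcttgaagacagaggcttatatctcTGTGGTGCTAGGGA

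Trbv12-1 had 12, 15, 19 and 38 UMIs in the CD8 cells of the 4 mice and 6, 4, 4 and 1 in their CD4 cells. As CPM, in which the UMIs of a class in a mouse are scaled to a common total, these were 3.15, 4.99, 4.07 and 6.23 against 1.40, 0.92, 0.71 and 0.17, so every CD8 value was above every CD4 value. The difference was 2.69 ± 0.48 on the log2 scale (SE; edgeR quasi-likelihood test with mouse as a block, Benjamini-Hochberg adjusted p = 0.00169). As usage, Trbv12-1 was carried by 6.11%, 9.64%, 11.4% and 16.8% of called CD8 cells and 1.54%, 1.2%, 1.09% and 0.55% of called CD4 cells, a mean of 11% ± 4.44 against 1.10% ± 0.41 (SD, n = 4 mice, 61 and 7 cells). Its close relative Trbv12-2 did not follow it: CPM was 9.96, 7.32, 7.29 and 7.54 in CD8 and 10.1, 9.44, 7.47 and 7.35 in CD4 cells, with overlapping values, a log2 difference of 0.03 ± 0.18 and an edgeR adjusted p = 0.918. Without Trpv1-ADC 2, that difference was -0.0035.

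Trav16 had 23, 8, 15 and 21 UMIs in CD8 and 7, 4, 12 and 4 in CD4 cells (CPM 6.03, 2.66, 3.22 and 3.44 against 1.64, 0.92, 2.13 and 0.68). CD8 values lay above CD4 values in each mouse and the 2 ranges did not overlap. The log2 difference was 1.61 ± 0.37 (edgeR adjusted p = 0.00784), and usage was 11% ± 2.06 of called CD8 cells against 3.07% ± 1.52 of called CD4 cells (SD, n = 4). Its near-copy Trav16n, with usage of 14.6% ± 3.45 and 7.45% ± 5.61, had a log2 difference of 0.72 ± 0.40 that did not pass (edgeR adjusted p = 0.221). That it did not pass rested on CTRL 2, whose CD4 cells held 37 of the Trav16n UMIs against 15, 7 and 8 in the other mice: without CTRL 2 it was 1.33 with an edgeR adjusted p = 0.027.

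Trbv1 went the other way, with 4, 5, 2 and 6 UMIs in CD8 and 11, 19, 20 and 15 in CD4 cells (CPM 1.05, 1.66, 0.43 and 0.98 against 2.57, 4.38, 3.56 and 2.56). The ranges did not overlap, and the log2 difference was -1.56 ± 0.40 (edgeR adjusted p = 0.0142). Trbv2 had 11, 5, 6 and 10 against 12, 30, 28 and 22 UMIs, with CPM of 2.88, 1.66, 1.29 and 1.64 against 2.81, 6.91, 4.98 and 3.76. In CTRL 1 the Trbv2 values of the lineages were close, and in the other 3 mice CD4 was higher (-1.15 ± 0.37, edgeR adjusted p = 0.0404). Trbv20 had 6, 5, 13 and 10 against 18, 16, 19 and 33 UMIs, CPM 1.57, 1.66, 2.79 and 1.64 against 4.21, 3.68, 3.38 and 5.64. These ranges did not overlap either (-1.02 ± 0.34, edgeR adjusted p = 0.045). As usage, CD8 against CD4 cells had 2.91% ± 1.42 and 7.59% ± 1.78 for Trbv1, 4.60% ± 2.03 and 9.48% ± 1.29 for Trbv2, and 5.04% ± 0.92 and 8.81% ± 2.61 for Trbv20 (SD, n = 4), lower in CD8 cells in 4 of 4 mice for each.

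In total 9 of the 69 members had enough UMIs to be tested in this comparison, and 5 were called, beside 28.3% of all 12145 genes. The median log2 difference of the tested members was 0.03, and that of all genes -0.01. Since a segment could enter the test through the lineage where it was high, 5 of 9 says nothing of the other members. The remaining tested members, Trbv19 (-0.50) and Trbv3 (0.43), did not pass (edgeR adjusted p = 0.236 and 0.439). Of the constant genes, Trac was lower in CD8 cells by -0.36 ± 0.05 (edgeR adjusted p = 2.51e-04), while Trbc1 (-0.05) and Trbc2 (0.02) did not pass.

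These calls were not equally firm. Trbv12-1 passed in each of 12 alternatives in which it could be tested (2.12 to 3.22) and Trav16 in 11 of 12. DESeq2 called Trbv12-1 alone (adjusted p = 0.00245), with adjusted p of 0.0656 for Trav16, 0.139 for Trbv1, 0.235 for Trbv2 and 0.304 for Trbv20. In edgeR, Trbv1 did not pass without Trpv1-ADC 1 (-1.24, adjusted p = 0.0823). Trbv2 did not pass without CTRL 2 (-0.92, adjusted p = 0.153), Trpv1-ADC 1 (-0.94, adjusted p = 0.179) or Trpv1-ADC 2 (-1.17, adjusted p = 0.103). Trbv20 did not pass without CTRL 1 (-0.94, adjusted p = 0.114), CTRL 2 (-1.02, adjusted p = 0.0903) or Trpv1-ADC 2 (-0.74, adjusted p = 0.236), or with doublets called by Scrublet removed (-0.99, adjusted p = 0.0553).

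Trbv29 was too low for the test but had the next clearest split in usage, at 11.5%, 7.23%, 9.09% and 6.70% of called CD8 cells and 0.77%, 1.2%, 1.64% and 2.21% of called CD4 cells. Every CD8 value was above every CD4 value, with means of 8.62% ± 2.15 and 1.45% ± 0.62 (SD, n = 4, 45 and 10 cells). With no filter on low counts, Trbv29 (2.19 ± 0.49, edgeR adjusted p = 1.36e-04), Trbv23 (-2.34 ± 0.70, edgeR adjusted p = 0.00784) and Trav4-4-dv10 (-2.22 ± 0.79, edgeR adjusted p = 0.0366) were called as well. The share of all genes called without the filter is not given, here or in the comparisons below. Such calls thus have no background beside them. Other segments with lower mean usage in CD8 cells in each of the 4 mice were Trbv23 (0.66% against 4.33%), Trav14d-3-dv8 (2.49% against 6.43%), Trav4-4-dv10 (0.38% against 3.35%) and Trbv31 (0.90% against 3.30%). Trbv31 (chr6:41557691-41558452, minus strand) is the beta V segment that lies downstream of the constant genes and joins by inversion. Trbv13-2 (3.26% in CD8, 4.63% in CD4), Trbv16 (3.86%, 3.98%) and Trbv13-3 (2.99%, 1.52%) completed the segments named for a known role.

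**Figure D3:**
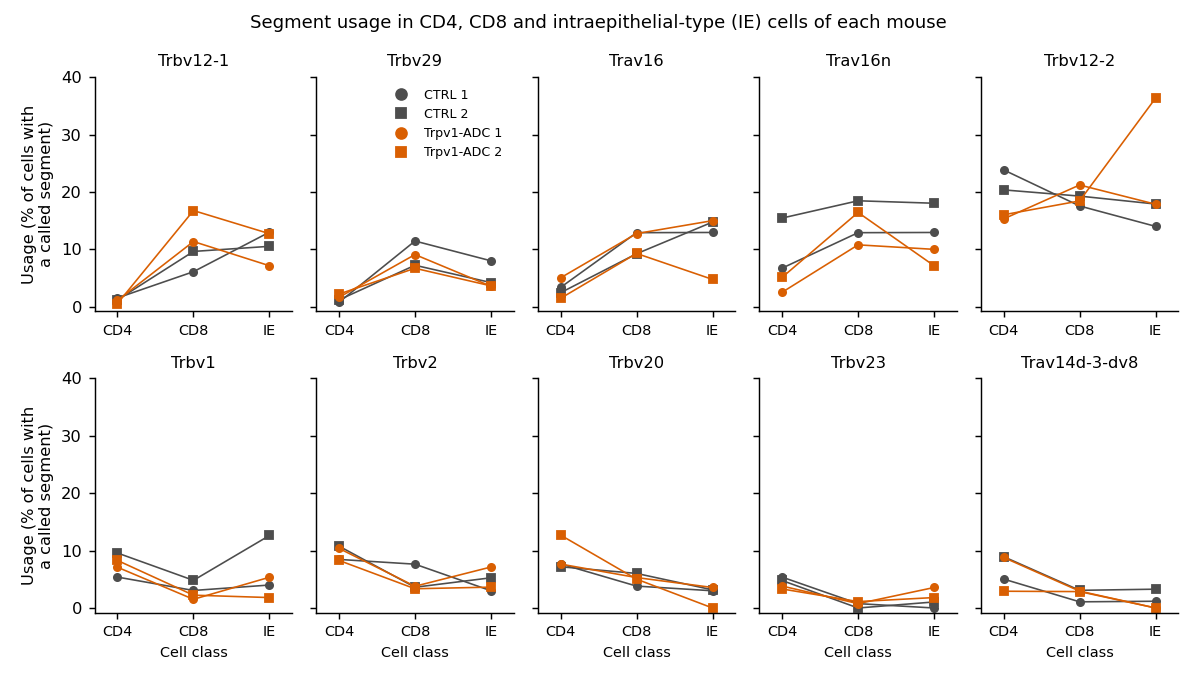
Usage of 10 segments (percentage of cells with a called segment of that chain) in CD4, CD8 and intraepithelial-type (IE) cells; each line is 1 mouse. Trbv12-1, Trbv29 and Trav16 are higher in CD8 than in CD4 cells of every mouse, Trbv1, Trbv2, Trbv20 and Trbv23 are lower, and Trbv12-2 stays between 14% and 36.4% with no common direction.

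Intraepithelial-type cells, which in the gut lie between epithelial cells, shared the Trbv12-1 pattern of CD8 cells. Set against CD4 cells, 4 of the 9 members tested were called, beside 23.6% of all genes, in a comparison added after the counts were seen. Trbv12-1 had 21, 12, 6 and 9 UMIs (CPM 5.21, 3.07, 2.78 and 3.47), above all CD4 values given earlier, with a log2 difference of 2.17 ± 0.46 (edgeR adjusted p = 0.00706). Trbv20 had 4, 5, 2 and 2 UMIs (CPM 0.99, 1.28, 0.92 and 0.77), below all CD4 values (-2.05 ± 0.38, edgeR adjusted p = 0.00356).

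Trbv2 had 4, 6, 5 and 2 UMIs (CPM 0.99, 1.54, 2.31 and 0.77), also below the CD4 range (-1.76 ± 0.36, edgeR adjusted p = 0.00607). Trbv19 had 6, 8, 3 and 6 UMIs against 13, 21, 22 and 25 (CPM 1.49, 2.05, 1.39 and 2.32 against 3.04, 4.84, 3.91 and 4.27). Its ranges did not overlap (-1.16 ± 0.33, edgeR adjusted p = 0.0286), but the call was lost with any 1 of the 4 mice left out (edgeR adjusted p from 0.0605 to 0.104) and with DESeq2 (0.228). The tested members as a group lay at a median of -0.48, all genes at 0.01, and the constant genes were lower as well (Trac -0.85 ± 0.08, edgeR adjusted p = 5.03e-05; Trbc2 -0.41 ± 0.07, edgeR adjusted p = 0.00254). The part of this general drop in the single differences was not tested. Usage, a share of the cells in which a segment was detected, was 10.9% ± 2.71 for Trbv12-1, 2.43% ± 1.64 for Trbv20, 4.76% ± 1.85 for Trbv2 and 4.30% ± 1.10 for Trbv19 (SD, n = 4).

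Directly against CD8 cells, none of the 4 members tested was called in edgeR or DESeq2, beside 30.3% of all genes, and 1 had an unadjusted edgeR p under 0.05. This was Trav16n (-0.78 ± 0.31, edgeR adjusted p = 0.0799), followed by Trbv12-2 (-0.50 ± 0.28, edgeR adjusted p = 0.204) and Trbv12-1 (-0.47 ± 0.35, edgeR adjusted p = 0.355). Usage of Trbv29 was lower in intraepithelial-type than in CD8 cells in 4 of 4 mice, at 4.85% ± 2.12 against 8.62% ± 2.15 (SD, n = 4). Among intraepithelial-type cells split by coreceptor and pooled over mice, Trbv12-1 was called in 10 of 87 cells with Cd8b1 (11.5%), 6 of 72 with Cd8a and no Cd8b1 (8.33%) and 18 of 147 with neither (12.2%). By mouse these shares ran from 5.88% to 14.3%, from 0% to 11.5% and from 8% to 17.4%, and their difference was not tested.

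Regulatory cells, which restrain immune responses and are named in the study's title, gave no segment past the threshold. Against CD4 cells, 0 of 5 members tested were called by edgeR or DESeq2, beside 22.9% of all genes called by edgeR. None of the 5 had an unadjusted edgeR p under 0.05. Trbv20 came nearest, with 7, 5, 0 and 1 UMIs (CPM 3.78, 3.35, 0 and 0.59) and -1.20 ± 0.56 (edgeR adjusted p = 0.154); its CTRL values lay within the CD4 range or just below and its Trpv1-ADC values far below. Trbv12-2 (-0.19 ± 0.28, edgeR adjusted p = 0.687) and Trbv2 (0.16 ± 0.32, edgeR adjusted p = 0.775) followed. In usage, Trbv12-2 stood at 18.4% ± 5.41, Trbv2 at 14% ± 3.79, Trbv19 at 9.44% ± 2.91 and Trbv1 at 9.38% ± 2.42 (SD, n = 4). Trbv12-1 was at 3.69% ± 2.58 (7 cells), above its CD4 value in 3 of 4 mice, and Trbv23, called in 1 regulatory cell, was at 0.64% against 4.33% in CD4 cells. With no filter on low counts, Trbv23 (-3.30) and Trav14d-3-dv8 (-3.47) were called.

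Naive and other cells of a lineage could hardly be compared by segment. Against naive CD4 cells, 2 members were tested in other CD4 and 1 in regulatory cells, against naive CD8 cells 2 in other CD8 and 1 in intraepithelial-type cells, and none between the naive lineages. None of these was called by edgeR or DESeq2, beside 34.1%, 46.8%, 7.84%, 36.7% and 14.1% of all genes called by edgeR in the same order. None had an unadjusted edgeR p under 0.05. Trbv12-2 was tested in each of the first 4, with log2 differences of -0.16, -0.32, 0.18 and -0.28. Without the filter on low counts, the naive lineages differed in Trbv1 (-2.71, lower in naive CD8) and Trbv12-1 (2.18), the direction of the joined lineages, which hold the same cells.

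The most used segments followed the lineage. Trbv12-2 led in all 6 classes, from 16.7% in naive CD8 to 21.5% in intraepithelial-type cells, and its mean over all alpha beta class cells was 18.9% ± 0.90 (SD, n = 4). Next came Trbv2 and Trbv1 in naive CD4 (11% and 10.8%), Trbv19 and Trbv2 in other CD4 (9.39% and 9.18%), Trbv2 and Trbv3 in regulatory (14% and 10.1%), Trbv12-1 and Trbv15 in naive CD8 (12.3% and 10.3%), Trbv12-1 and Trbv29 in other CD8 (10.5% and 8.80%), and Trbv12-1 and Trbv3 in intraepithelial-type cells (10.9% and 9.39%). On the alpha chain Trav16n came before all others in 5 of 6 classes, at 7.39% in other CD4, 11.1% in regulatory, 15.7% in naive CD8, 14.4% in other CD8 and 12% in intraepithelial-type cells. Naive CD4 was led by Trav14d-3-dv8 (10.3%), then Trav16n (8.24%) and Trav14-1 (6.49%). Trav16 was the next in naive CD8 (9.93%), other CD8 (11.3%) and intraepithelial-type cells (11.9%), followed by Trav3-3 (6.79%), Trav6-7-dv9 (6.36%) and Trav3-3 (7.51%). In other CD4 and regulatory cells Trav6-7-dv9 was the next (6.82% and 9.03%), followed by Trav14d-3-dv8 (5.69%) and Trav3-3 (5.91%).

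**Figure D4:**
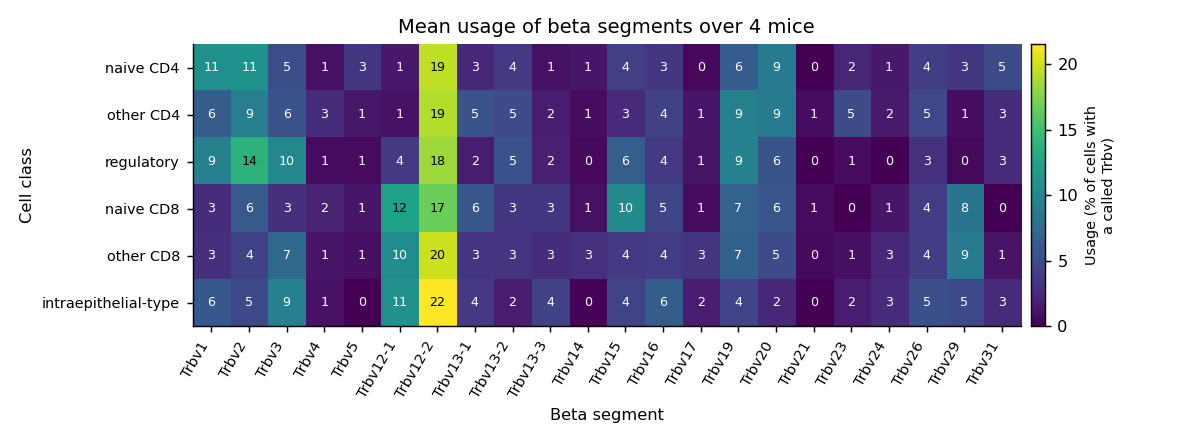
Mean usage over 4 mice of the 22 beta members in 6 classes, as a percentage of cells with a called beta segment. The Trbv12-2 column is high in every class, while Trbv12-1 and Trbv29 are high in the CD8 and intraepithelial-type classes and low in the CD4 and regulatory classes.

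Evenness of usage was summarised with the unbiased Simpson index, the chance that 2 cells drawn at random carry the same segment. For the beta chain it was 0.0761 over all alpha beta class cells and ran from 0.0762 in naive CD8 to 0.0913 in regulatory cells, mice pooled. For the alpha chain it was lower, 0.0348, with lower pooled values in CD4-type classes: 0.0252, 0.0289 and 0.0299 in naive CD4, other CD4 and regulatory cells, and 0.0461, 0.0475 and 0.0460 in naive CD8, other CD8 and intraepithelial-type cells. By mouse, the alpha index was 0.0263, 0.0425, 0.0272 and 0.0273 in CD4 and 0.0428, 0.05, 0.0470 and 0.0478 in CD8 cells, higher in CD8 in each mouse, by little in CTRL 2. Single classes, with 18 to 117 called cells a mouse, did not keep this order in every mouse. The alpha index of naive CD4 cells was 0.0130, 0.0526, 0.0186 and 0.0429, that of regulatory cells 0.0290, 0.0646, 0.0431 and 0.0196, and that of naive CD8 cells 0.0554, 0.0458, 0.0322 and 0.0473. In CTRL 2 both CD4-type classes were thus above naive CD8, and in Trpv1-ADC 1 the regulatory cells were. The Morisita overlap of beta usage, which is near 1 for the same usage, was 0.964 to 1.00 among the 3 CD4-type classes, 0.960 to 1.00 among naive CD8, other CD8 and intraepithelial-type cells, and 0.840 to 0.892 across the 2 sets, mice pooled. Between mice the same class could score as low, at 0.806 in naive CD4 cells of the 2 Trpv1-ADC mice and at 0.836 and 0.847 for intraepithelial-type cells of Trpv1-ADC 2 with those of CTRL 1 and CTRL 2. In the joined lineages, which hold more cells, the beta overlap between mice was 0.971 to 1.01 for CD4 and 0.945 to 1.05 for CD8 cells, and that of CD4 with CD8 cells of the same mouse was 0.921, 0.920, 0.828 and 0.775. For the alpha chain, regulatory cells did not keep to the CD4-type set, mice pooled. Their overlap was 1.02 with naive CD8, 0.991 with other CD8 and 0.968 with intraepithelial-type cells. With naive CD4 it was 0.892 and with other CD4 cells 1.01. Naive and other CD4 cells had alpha overlaps of 0.705 to 0.871 with naive CD8, other CD8 and intraepithelial-type cells. CD4 with CD8 cells of the same mouse had 0.834, 0.979, 0.839 and 0.782. No cell is in more than 1 class, but all classes come from the same 4 mice and 1 library, and the overlaps are given as a description.

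Trpv1-ADC and CTRL mice were compared within each class. In no class was a member called: 1 was tested in naive CD4 (beside 0.115% of all genes called), 10 in other CD4 (0.00807%), 1 in regulatory (0.0195%), 0 in naive CD8 (0.0129%), 5 in other CD8 (0.0449%), 4 in intraepithelial-type (0.375%) and 0 in gamma delta cells (0%). With lineages joined, 15 were tested in CD4 (0.00779%) and 7 in CD8 cells (0.0342%). DESeq2 also called none. After adjustment the shares of all genes called were so close to 0 that the members' 0 does not set them apart. At an unadjusted edgeR p under 0.05 there was 1 each in naive CD4, other CD4, other CD8 and joined CD4 cells, of 1, 10, 5 and 15 tested. In naive CD4 cells 528 of all 7857 genes were under that unadjusted limit. The matching counts of all genes in the other classes are not given here. In simulated counts for other CD4 cells, edgeR called 84.8% of genes changed 4-fold and 38.8% of those changed 2-fold, among genes of all levels. The rates were not taken for genes as low as the V segments, so they do not give the power for these.

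In other CD4 cells Trav16n had 15, 33, 6 and 6 UMIs (CPM 4.51, 9.15, 1.41 and 1.31). Both CTRL mice were above both Trpv1-ADC mice, and CTRL 2 stood highest. The log2 difference, Trpv1-ADC against CTRL, was -2.33 ± 0.53, with an edgeR adjusted p = 0.78. With no filter on low counts the adjusted p was 0.00476 (-2.30), and for joined CD4 cells 0.858 with the filter (-2.19 ± 0.55) and 0.00341 without it (-2.17). These UMIs came from 10, 21, 4 and 7 CD4 cells, at most 5 in a cell, so no single cell held them. As usage in CD4 cells Trav16n was at 6.72%, 15.4%, 2.52% and 5.11%, and in CD8 cells at 12.9%, 18.5%, 10.8% and 16.4%, where the groups overlapped.

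Trbv12-2 in naive CD4 cells had 11, 11, 8 and 6 UMIs (CPM 11.6, 14.9, 5.80 and 4.67), with both CTRL mice above both Trpv1-ADC mice (-1.31 ± 0.56, edgeR adjusted p = 0.678). In regulatory cells the same segment had 10, 12, 13 and 14 UMIs (CPM 5.40, 8.04, 10.6 and 8.23), the Trpv1-ADC mice above the CTRL mice, by little for Trpv1-ADC 2 against CTRL 2 (0.49 ± 0.47, edgeR adjusted p = 0.913). Trbv12-1 in other CD8 cells had 9, 6, 16 and 28 UMIs (CPM 2.96, 2.58, 4.75 and 6.44). The groups did not overlap there (1.01 ± 0.44, edgeR adjusted p = 0.76), and with naive CD8 cells joined they did, at 3.15, 4.99, 4.07 and 6.23 CPM (0.38 ± 0.41, edgeR adjusted p = 0.929).

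Among intraepithelial-type cells the smallest p belonged to Trav16, with 23, 12, 7 and 2 UMIs (CPM 5.71, 3.07, 3.24 and 0.77), where CTRL 2 and Trpv1-ADC 1 were alike (-1.19 ± 0.69, edgeR adjusted p = 0.533). Trbv12-2 followed with 19, 21, 13 and 25 UMIs (CPM 4.72, 5.38, 6.01 and 9.65; 0.63 ± 0.39, edgeR adjusted p = 0.567), and its usage of 36.4% in Trpv1-ADC 2 stood far above the 14%, 17.9% and 17.9% of the other mice. Trav16n came after them (-0.67 ± 0.54, edgeR adjusted p = 0.679). Among the remaining members with the smallest p were Trav6-7-dv9 (0.56 ± 0.66) and Trbv12-2 (-0.17 ± 0.28) in other CD4 cells, Trav16 (-0.73 ± 0.48) and Trav16n (-0.32 ± 0.43) in other CD8, Trbv12-2 (-0.40 ± 0.25) and Trbv23 (-0.75 ± 0.52) in joined CD4, and Trav16n (-0.38 ± 0.39) and Trav16 (-0.41 ± 0.45) in joined CD8 cells. Trbv13-1, Trbv13-2, Trbv19, Trbv2 and Trav3-3, tested in joined CD4 cells, had differences between -0.16 and 0.11, each within its SE.

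The overall amount and evenness of V segment RNA were also compared between the groups. Trbv CPM in alpha beta class cells was 40.8, 40.6, 41.4 and 38.4, and Trav 34.8, 29.7, 32.3 and 28.5, with overlapping groups. Per 100 Trbc UMIs, Trbv stood at 3.4, 3.45, 3.47 and 3.4. In some single classes the groups did not overlap. Trbv CPM was lower in both Trpv1-ADC mice than in both CTRL mice in 3 of 6 classes: naive CD4 (53.9 and 57.0 in CTRL against 42.0 and 46.7), naive CD8 (45.3 and 44.1 against 37.0 and 35.4) and intraepithelial-type cells (33.5 and 33.3 against 32.4 and 29.7). Trav CPM was so in 1 of 6, other CD4 (43.3 and 42.4 against 38.4 and 35.3). Each of these has an exact two-sided permutation p = 0.33, the smallest the design allows. Per 100 Trbc UMIs, Trbv stayed lower in Trpv1-ADC mice in naive CD4 (4.09 and 4.26 against 3.45 and 3.83) and naive CD8 cells (3.34 and 3.73 against 3.13 and 3.30) and was higher in regulatory cells (3.10 and 3.37 against 3.90 and 3.4). The share of cells with a Trbv UMI was 23.0% and 21.7% in CTRL and 20.8% and 21.1% in Trpv1-ADC mice (exact two-sided permutation p = 0.33), and at a thinned depth of 3000 UMIs 11.5% and 11.5% against 11.2% and 10.7%. The beta Simpson index was 0.0740, 0.0775, 0.0706 and 0.0809 over all alpha beta classes (exact two-sided permutation p = 1), 0.0946, 0.0853, 0.0689 and 0.0766 in CD4 cells (p = 0.33, exact permutation), and 0.0738, 0.0729, 0.0834 and 0.0858 in CD8 cells (p = 0.33, exact permutation). In intraepithelial-type cells Trpv1-ADC 2 stood apart at 0.160, the other mice being at 0.0675, 0.0853 and 0.0643 (exact two-sided permutation p = 1). Of 18 such indices, over 2 chains and 9 classes or joined classes, every Benjamini-Hochberg adjusted permutation p was 1.

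Segments of invariant T cells were sought by name. Trav11 (chr14:53519303-53519859) and Trav11d (chr14:52824357-52824912), used by invariant natural killer T cells, were at 0 UMIs in the whole matrix. As shown above, their ends are identical and none of their 60-base windows is unique. A count of 0 allows up to 3 UMIs by counting error alone. It sets no limit on molecules whose reads fit several copies. The related copy Trav11n had 4 UMIs. Traj18, the joining segment of the same chain, had 990 UMIs over all cells, but a UMI of it was in 4.11% of the 803 T cells with a UMI of Zbtb16, a transcription factor of innate-like T cells, and in 5.96% of T cells without. Trav1, used with Traj33 by mucosal-associated invariant T cells, had 28 UMIs, of which 1 was in the Zbtb16+ cells, and Traj33 had 76. The Zbtb16+ cells included 182 of the gamma delta class, and with that class left out Traj18 was in 4.99% of 621 Zbtb16+ and 6.10% of 10652 other T cells. The usual beta partners made up the following parts of the Trbv UMIs. Of 155 in Zbtb16+ cells outside the gamma delta class, 6 were of Trbv13-2 (3.87%, against 3.54% in the other T cells), 5 of Trbv29 (3.23% against 3.81%), 10 of Trbv1 (6.45% against 5.18%), 10 of Trbv19 (6.45% against 7.25%) and 8 of Trbv13-3 (5.16% against 2.52%). These shares were not tested. Of the Trav9 segments, Trav9-4 (31 UMIs) and Trav9-2 (22) were members, while Trav9-1 had 15, Trav9n-4 had 14, Trav9n-1 had 5, Trav9d-1 had 3, Trav9d-3 and Trav9d-4 had 1 each, and Trav9d-2, Trav9n-2 and Trav9n-3 had 0.

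Alpha segments were rare in gamma delta cells, where dv names made up a larger part of them. Of the 52 Trav UMIs, 25 (48.1%) fell on segments with a dv name, which the delta chain can also use, against 285 of 1770 (16.1%) in the alpha beta classes. By mouse the gamma delta shares were 63.2%, 42.1%, 41.7% and 0%, from 19, 19, 12 and 2 UMIs, and the alpha beta shares 14%, 16.9%, 18.1% and 15.8%. The 3 gamma delta values with more than 2 UMIs lay above all alpha beta values. Trav15-1-dv6-1 and Trav16 led with 8 UMIs each, then Trav13-4-dv7 with 7. Trbv CPM was 13.0 in gamma delta cells, and Trbv12-2 (9 UMIs) and Trbv15 (8 UMIs) led there.

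Other genes of the receptor were taken from a list of 20 that also holds the CD3 chains, coreceptors, proximal kinases and recombination enzymes. Between the groups of mice, 14 or 15 of the 20 were tested in each class and 0 were called by edgeR. Between CD8 and CD4 cells 16 were tested, 4 were higher in CD8 (Cd8a and Cd8b1, which with Cd4 defined the classes, Cd3d, and Themis, which tunes receptor signalling in thymocytes) and 6 lower (Cd4, Trac, the inhibitory receptor Cd5, Cd6, the kinase Zap70 and the adaptor Lat). Themis differed by 0.72 ± 0.06 and Cd5 by -1.14 ± 0.06 (edgeR adjusted p = 4.77e-06 and 5.93e-07). Between intraepithelial-type and CD8 cells 15 were tested, with Cd3e and Cd3g, which also served to pick T cells, higher and 9 lower. The 9 included Trac and Trbc2, and also Cd8b1, which the gate required of every CD8 cell. In regulatory against CD4 cells, 3 were higher (Cd3d, Cd3g and Cd8a) and 6 lower of 15, the latter including Trac, Trbc2 and Cd4. The calls of Cd8a and Cd4 follow from the gates. CD4 cells had to hold Cd4 and no Cd8a, and regulatory cells did not (60.8% with Cd4, 3.19% with Cd8a).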

How the data were processed

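The authors' deposited matrices hold raw counts in whole numbers, UMIs per gene for expression and counts per tag for hashtags, made with Cell Ranger and Seurat on build mm10, per the submitters' processing notes; versions, annotation, strand setting and treatment of reads shared by several copies are not given in the sources used here. The design text and the extract protocol disagree on whether 5' or 3' chemistry was used. The tagged barcodes were the same 23063 as the expression barcodes.

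Barcodes needed at least 500 UMIs and 200 genes, with a mitochondrial share of at most 10% (22729 passed). A barcode went to the mouse of its top tag at 10 counts or more and at least 3 times the next of the 4 named tags. Of all barcodes 19819 were so assigned, and 19571 of them also passed the filters above. Cells with Cd3 signal and more than 2 B or more than 2 myeloid UMIs were kept but not classed as T cells. Doublets were otherwise treated by the alternative with Scrublet (scanpy 1.11.5), which called 15.0% of barcodes. Classes followed marker gates with no V segment among the markers. The labels do not say how cells were handled per mouse beyond the tags, so p-values measure the spread between these mice.

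UMIs were summed per mouse and class (20 cells or more per mouse) and all genes tested with edgeR 4.0.16 (TMM, filterByExpr, robust quasi-likelihood, Benjamini-Hochberg, threshold 0.05) in R 4.3.3; comparisons of classes had the mouse as a block. Simulated counts tested the scripts: in other CD4 cells (12389 genes) 6 unchanged genes were called, and between joined lineages (12145 genes) 95.5% of 4-fold and 59.7% of 2-fold changes were recovered with 20 false calls. Mice of the same number were not paired by the labels, so the group comparisons had no block. Positions and letters are from GENCODE M21 on GRCm38, which matched 163 of 165 symbols. Windows of 60 bases were compared among V transcripts only.

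Named segments were those past the threshold (up to 10 by p in each direction), the 3 of smallest p where none passed, the 3 of highest mean usage per class and chain, the pairs at the 20 UMI minimum, and those with a textbook role. Trbv29, Trbv23, Trav4-4-dv10, Trav14d-3-dv8 and Trbv15 usage, and Trbv31's difference, were picked after their values were seen. The members and lists were chosen with earlier results of these data known. Joined lineages, contrasts against them, the wider naive gate, the call at 2 UMIs as an alternative, the split by CD8 chains and the crossed block were added after seeing the data. Alternatives also covered DESeq2 1.42.0, its size factors in edgeR, no filter on low counts, leaving out each mouse, stricter tags, a limit of 20000 UMIs per cell and lineage markers at 2 UMIs.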

Additional observations from a re-analysis of the deposited data

Results flagged for a closer look

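Trbv12-2, the most used beta segment, differed between Trpv1-ADC and CTRL mice in opposite directions in different classes, with no overlap of the groups within a class. The pattern was found by a search over all tested segments and pairs of classes. With 2 mice per group such a lack of overlap has an exact two-sided permutation p = 0.33. It was common in usage: 4 of 16 members called in at least 20 other CD4 cells, and 7 of 17 in joined CD4 cells. Trbv12-2 was lower in Trpv1-ADC mice in naive CD4 (log2 -1.31) and other CD4 cells (-0.17, within its SE). It was higher in regulatory (0.49) and intraepithelial-type cells (0.63). The gap between the log2 changes was -1.80 for naive CD4 less regulatory, -1.95 for naive CD4 less intraepithelial-type, -0.66 for other CD4 less regulatory and -0.80 for other CD4 less intraepithelial-type cells. None of these 4 gaps was tested, and none of the single changes passed the adjusted threshold.

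In the hashtag matrix, 11 of 15 tags are named by the labels for no mouse, and 0.127% of all tag counts fell on them.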

How the results depend on the processing

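Across 50 results and 598 alternatives, 537 were scored as unchanged. Log2 changes had to keep their direction and side of the threshold, and usage values and indices to stay within the spread. For counts of called V segments (217 of 232 unchanged) an equal or similar number sufficed, whichever segments were called. Without CTRL 2, CD8 against CD4 so counted as unchanged, though Trbv29 and Trav16n were called in place of Trbv2 and Trbv20. Between groups of mice few members or none were tested in most classes, so an unchanged 0 says little there. With no filter on low counts, called V segments went from 0 to 1 between groups of mice in other CD4 and in joined CD4 cells, to 2 for naive CD8 against naive CD4, regulatory against naive CD4 and regulatory against CD4, from 5 to 8 for CD8 against CD4 and from 4 to 7 for intraepithelial-type against CD4. The shares of all genes called at that setting are not given here. It also tested more V segments, 76 in place of 1 between groups of mice in naive CD4 cells. DESeq2 called 1 for CD8 against CD4, and leaving out a mouse called 3 to 5. With lineage markers at 2 UMIs, which left 3 and 1 segments tested, 0 were called for CD8 and for intraepithelial-type against CD4. Without Scrublet doublets the latter gave 2. Other CD4 against naive CD4 gave 1 with a wider naive gate, and 0 to 1 with a mouse left out (Trbv1 at -1.58 without Trpv1-ADC 1). Trbv12-2, CD8 against CD4 (0.03), ran from -0.11 without Scrublet doublets to 0.118 without CTRL 2, and was -0.0035 without Trpv1-ADC 2 and -0.0031 with at most 20000 UMIs.

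The Trpv1-ADC less CTRL difference in cells with a called Trbv (-1.24 percentage points) was -0.407 with lineage markers at 2 UMIs, -0.183 with the call at 2 UMIs and 0.0974 at 3 UMIs. Differences in the Simpson index moved as follows. With lineage markers at 2 UMIs the beta values were 0.00652 (all alpha beta classes), 0.00197 (CD4) and 0.00947 (CD8). At 2 UMIs they were -0.0109 (all) and 0.00258 (CD8), and the alpha value -0.0564. At 3 UMIs they were -0.0213 (all) and 0.0734 (CD4), and the alpha value -0.196. By shares of UMIs they were -0.00922 (CD4) and -0.000938 (CD8), and without Scrublet doublets 0.0126 (CD8). The causes were not tested.

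The replicate block was tried with mice paired by number. Same-numbered mice deviated together with correlations of -0.105 (regulatory) to 0.0999 (intraepithelial-type). These values cannot tell whether such mice were handled together. With the block 0 segments were called between groups in any class, also with the pairing crossed in regulatory cells. There all called genes went from 2 to 13 (block) and 45 (crossed). Without the mouse block, CD8 against CD4 called 5 segments. The limits are depth and mice: 3.30% of alpha beta class cells had a segment called at 2 UMIs, so most calls rest on 1 molecule, and 2 mice per group leave an exact permutation no p under 0.33.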

Other observations

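Both chains were called in 297 alpha beta class cells. No pairing stood out: the most frequent, Trav14n-3 with Trbv12-2, Trav16 with Trbv16, Trav16n with Trbv12-2, Trav16n with Trbv19 and Trav6-7-dv9 with Trbv12-2, were each seen in 4 cells. Of the 42 CD4 cells with a Trav16n UMI, 7 had a called beta segment. Of these, 2 cells in CTRL 1 carried the same segment, and 5 cells in CTRL 2 carried 4 different ones.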
